A study of Mus musculus with 8 samples.

Results

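The LAR-type receptor phosphatases and their postsynaptic partners were followed as 10 genes: the receptors Ptprd, Ptprs and Ptprf, the ligands Slitrk1, Slitrk2, Slitrk3, Slitrk4 and Slitrk5, and the interleukin receptor relatives Il1rapl1 and Il1rap. Each was taken by its symbol from a table of 56575 features, of which 24338 carry a symbol, and all 10 were found. RNA-seq was performed on hippocampi of 8-week-old C57BL/6 mice, with 4 libraries labelled Slm2KO and 4 labelled WT. By its name, Slm2KO is a knockout of SLM2, a STAR-family protein that binds RNA and regulates splicing and is encoded by Khdrbs3. The labels give neither the deleted part nor the design of the allele, and they do not say whether each library came from a separate animal, so p-values below measure the spread between these samples. The table gives 1 normalised read count per gene and library, so total expression is described here, and splicing was not analysed.

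LAR-type receptors are presynaptic adhesion molecules with immunoglobulin and fibronectin repeats outside the cell and a pair of phosphatase domains inside it. They bind partners on the postsynaptic membrane across the cleft and organise the presynaptic terminal through scaffolds such as the liprins. Slitrk proteins carry leucine-rich repeats, and most of them are linked to excitatory synapses, whereas Slitrk3 acts with PTPδ, the Ptprd product, at inhibitory synapses. IL1RAPL1, affected in X-linked intellectual disability, and the interleukin 1 receptor accessory protein IL1RAP also bind PTPδ. Which partner a receptor binds depends in part on very short alternative exons in its extracellular part, called mini-exons.

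Short coding exons are shown because all 3 receptor genes have them and a total per gene cannot resolve their use. The search took every such exon, so the set is not limited to the mini-exons that affect partner binding: the last Ptprd exon and the 12-base Ptprs exon printed lie just inside the membrane in the encoded protein. In GENCODE vM21, on the mm10 assembly also named in the table, internal coding exons of at most 30 bases were found in Ptprd (6), Ptprs (2) and Ptprf (2), and 0 in the 7 ligand genes. Each is a multiple of 3 bases long. Capitals mark the short exon and lower case the 18 bases on either side in a spliced transcript, 5′ to 3′ on the minus strand, on which all 3 genes lie. Of the 6 in Ptprd, 5 are printed; the sixth is a longer form of the last of them.
Ptprd chr4:76139294-76139302: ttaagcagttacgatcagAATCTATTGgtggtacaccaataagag
Ptprd chr4:76138556-76138573: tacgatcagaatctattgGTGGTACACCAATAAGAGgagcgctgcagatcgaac
Ptprd chr4:76135545-76135556: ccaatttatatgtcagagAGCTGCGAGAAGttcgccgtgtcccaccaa
Ptprd chr4:76095520-76095546: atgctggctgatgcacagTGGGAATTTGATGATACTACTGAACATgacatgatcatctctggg
Ptprd chr4:76054589-76054600: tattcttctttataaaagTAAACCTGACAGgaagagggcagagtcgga
Ptprs chr17:56427791-56427817: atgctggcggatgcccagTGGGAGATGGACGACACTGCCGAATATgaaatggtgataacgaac
Ptprs chr17:56421833-56421844: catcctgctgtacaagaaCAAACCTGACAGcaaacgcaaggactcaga
Ptprf chr4:118252076-118252093: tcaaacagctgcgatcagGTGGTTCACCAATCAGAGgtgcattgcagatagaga
Ptprf chr4:118227819-118227845: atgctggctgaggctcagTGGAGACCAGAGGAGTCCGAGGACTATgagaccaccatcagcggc

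Several of these exons have a counterpart in a second receptor. The 18-base exon of Ptprd matched that of Ptprf at 16 of 18 positions. The 12-base exon of Ptprs matched the last Ptprd exon printed at 11 of 12 positions. A 27-base exon is present in all 3 genes and matched at 19 of 27 positions between Ptprd and Ptprs, at 13 between Ptprd and Ptprf and at 14 between Ptprs and Ptprf. Among the annotated coding transcripts whose ends lie beyond the exon, the 9-base exon was present in 6 of 8 for Ptprd, and the 27-base exon in 1 of 9 for Ptprd, 1 of 6 for Ptprs and 1 of 3 for Ptprf. These are counts of annotated transcripts, not of reads, and the use of the exons was not analysed here.

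The libraries held 104020058 to 125985224 reads, and each member was covered by 760 to 24777 reads in a library. Khdrbs3 was not lower under the Slm2KO label: it had normalised read counts of 29676, 33366, 30022 and 25932 in the libraries labelled Slm2KO, against 20662, 23542, 19458 and 24544 in those labelled WT. In limma its log2 difference was 0.43, with an adjusted p of 1.00, but DESeq2 on recovered reads called it higher (adjusted p = 0.0191). One value for the whole gene cannot show loss of part of a transcript, so every direction below refers to the labels. Y-linked reads were present in Slm2KO 3, Slm2KO 4 and WT 4 and near 0 in the other 5 libraries. Xist had 32977 to 49369 normalised read counts in those 5 and 10.5 to 17.6 in the libraries with Y-linked reads. The labels were thus not balanced in this respect, with Y-linked reads in 2 libraries labelled Slm2KO and 1 labelled WT. Marker genes of hippocampal neurons were present in every library, with no listed marker at 0 in all of them. Several lists of cell type markers had negative log2 differences for all their genes found: 5 of 5 endothelial genes (median -0.29), 5 of 5 CA2 and CA3 genes (-0.20), 6 of 6 dentate granule cell genes (-0.20) and 5 of 5 oligodendrocyte precursor genes (-0.16). Pcp4 was also on the CA2 and CA3 list, but no row carried its symbol. Of 5 CA1 genes, 4 had a positive difference (median 0.17). No gene of these lists was called in limma. Unadjusted, 4 of the 6 dentate granule cell genes had a limma p under 0.05, against 3.52% of all features. For 2 of the 6 the labels did not overlap, against 2.5% of all features. Summed counts overlapped between the labels for each list. The sums of the endothelial genes were 6498 to 9889 in the libraries labelled Slm2KO and 8031 to 11373 in those labelled WT. Those of the dentate granule cell genes were 22025 to 29491 and 29203 to 30884. The part of these cell type lists in the members' values was not tested. The choroid plexus list, headed by Ttr (transthyretin), ran from 387768 to 2329290 in summed counts in the libraries labelled Slm2KO and from 227292 to 1842130 in those labelled WT.

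Per length of exon, Slitrk3 was the most abundant of the 10 genes and Ptprf and Il1rapl1 the least. Levels per length are normalised read counts divided by the kilobases of exon of the coding transcripts inside the row (counts per kb), and means are over the 8 libraries. Slitrk3 averaged 5217 ± 406 counts per kb (SD, n = 8). Slitrk5, a ligand whose loss in mice gives compulsive grooming, followed at 2847 ± 274, Slitrk1, linked to Tourette syndrome in people, at 2588 ± 298, and Ptprs, which encodes PTPσ, at 2474 ± 169 counts per kb (SD, n = 8). Slitrk5 exceeded Slitrk1 in 8 of 8 libraries, although their ranges overlapped, and Slitrk1 exceeded Ptprs in 6 of 8. Slitrk4 averaged 1617 ± 119, Ptprd 1343 ± 65.9, Slitrk2 892 ± 45.7 and Il1rap 590 ± 41.4 counts per kb (SD, n = 8), with no overlap between neighbours in that order. Il1rapl1 averaged 312 ± 38.7 and Ptprf 306 ± 26.2 counts per kb (SD, n = 8), and Il1rapl1 was the higher in only 5 of 8 libraries, so that this pair was not separated.

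The order in the middle depends on the length used. With the longest coding transcript in place of all coding exons, Il1rap averaged 1122 ± 78.9 counts per kb (SD, n = 8) and stood above Slitrk2 at 927 ± 47.5, and Ptprs at 2600 and Slitrk1 at 2588 changed places. Slitrk4 and Il1rapl1 each occupy a pair of rows in the table, and the row with the higher mean was used. The other Slitrk4 row (chromosome X, 64264884 to 64269271) lies 172 bases away and averaged 4366 normalised read counts over the 8 libraries against 6767 in the row used. The other Il1rapl1 row (chromosome X, 86740870 to 86742399) averaged 422 against 926. The sum of both rows gave 1299 counts per kb for Slitrk4, below the 1343 of Ptprd, and 299.7 for Il1rapl1, below the 306 of Ptprf, so that both orders given above turn with that choice.

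**Figure D1:**
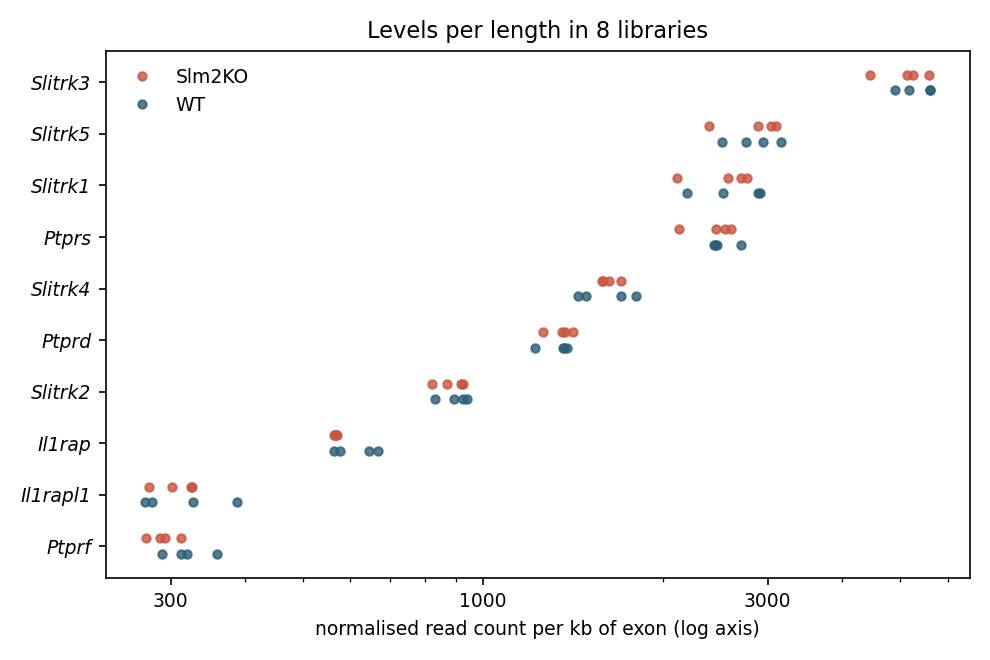
Normalised read counts per kilobase of exon (log axis) for the 10 genes, 1 point per library, with libraries labelled Slm2KO above those labelled WT for each gene. Slitrk3 stands apart at the top with a mean of 5217 counts per kb, and Il1rapl1 and Ptprf share the bottom at 312 and 306.

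Among the receptors, Ptprs made up the largest part in every library. Its share of the summed counts per kb of the 3 receptors was 61.8%, 61.3%, 59.9% and 55.5% in the libraries labelled Slm2KO, against 61.5%, 61.7%, 58.4% and 59.6% in those labelled WT. Ptprd held 33.2% ± 2.68 under the Slm2KO label and 32.0% ± 1.39 under the WT label, and Ptprf 7.17% ± 0.534 and 7.68% ± 0.716 (SD, n = 4 each). The shares of the labels overlapped for all 3 receptors. Among the 5 Slitrk genes, Slitrk3 held 39.3% ± 0.408 under the Slm2KO label and 40.1% ± 0.935 under the WT label, and Slitrk2, the smallest, 6.82% ± 0.322 and 6.77% ± 0.247 (SD, n = 4 each). The Slitrk shares overlapped as well.

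No member differed between the labels in limma: 0 of 10 passed the adjusted threshold of 0.05, where 0.0039% of the 25667 features tested did. Unadjusted, 0 of 10 had a p under 0.05, against 3.52% of all features, and the groups overlapped for all 10, where they did not overlap for 2.5% of all features. Without WT 1, 1 of 10 had an unadjusted limma p under 0.05, where 370 features higher and 432 lower of 25667 did. Without WT 4 it was also 1 of 10, where 406 features higher and 449 lower did. Adjusted p-values were 1.00 for each member in limma. The estimates were precise enough to bound the size of a difference. For 10 of 10 members the 95% interval lay inside 1.5-fold in either direction, the widest bounds being 0.814-fold and 1.17-fold. The same held for 65.7% of all features and for 96.2% of the 12346 features with a symbol and a mean of at least 500. Of the members, 7 had a negative log2 difference, against 53.9% of all features and 56.6% of those with a symbol and a mean of at least 500. The median log2 difference was -0.04 over the members and -0.01 over all features tested. The members' signs turned with single libraries: 3 of 10 were negative without Slm2KO 4 (median 0.01), 4 of 10 without WT 4 (0.00) and 10 of 10 without WT 1 (-0.06). In bulk tissue, fewer cells of a type and less RNA per cell cannot be told apart.

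Ptprd (chromosome 4, 75941237 to 78211895, minus strand), whose product PTPδ binds Slitrk3, IL1RAPL1 and IL1RAP, had normalised read counts of 13872, 15116, 14900 and 15581 in the libraries labelled Slm2KO, against 13451, 15067, 15227 and 14964 in those labelled WT. One library under each label was low and the other 6 lay close together. The log2 difference was 0.02 (SE 0.058; limma adjusted p = 1.00; two-sided exact permutation p = 0.657).

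Ptprs (chromosome 17, 56412426 to 56476480, minus strand), whose product PTPσ also binds heparan and chondroitin sulphate proteoglycans, had 18325, 18772, 17688 and 15323 in the libraries labelled Slm2KO, against 17773, 19509, 17587 and 17525 in those labelled WT. Slm2KO 4 was the lowest of the 8. The log2 difference was -0.05 (SE 0.070; exact permutation p = 0.657), and without Slm2KO 4 it was 0.01.

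Ptprf (chromosome 4, 118208213 to 118291397, minus strand), which encodes LAR itself, had 2413, 2111, 2268 and 2228 in the libraries labelled Slm2KO, against 2470, 2409, 2770 and 2242 in those labelled WT. The groups overlapped, with WT 3 the highest and WT 4 inside the range of the Slm2KO label. At -0.13 (SE 0.075), its log2 difference was the largest in size among the 10. The 95% interval was 0.814- to 1.03-fold, and the exact permutation p was 0.143. It was negative under each of the 22 alternative settings, at -0.07 without WT 3 and -0.18 without WT 4.

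**Figure D2:**
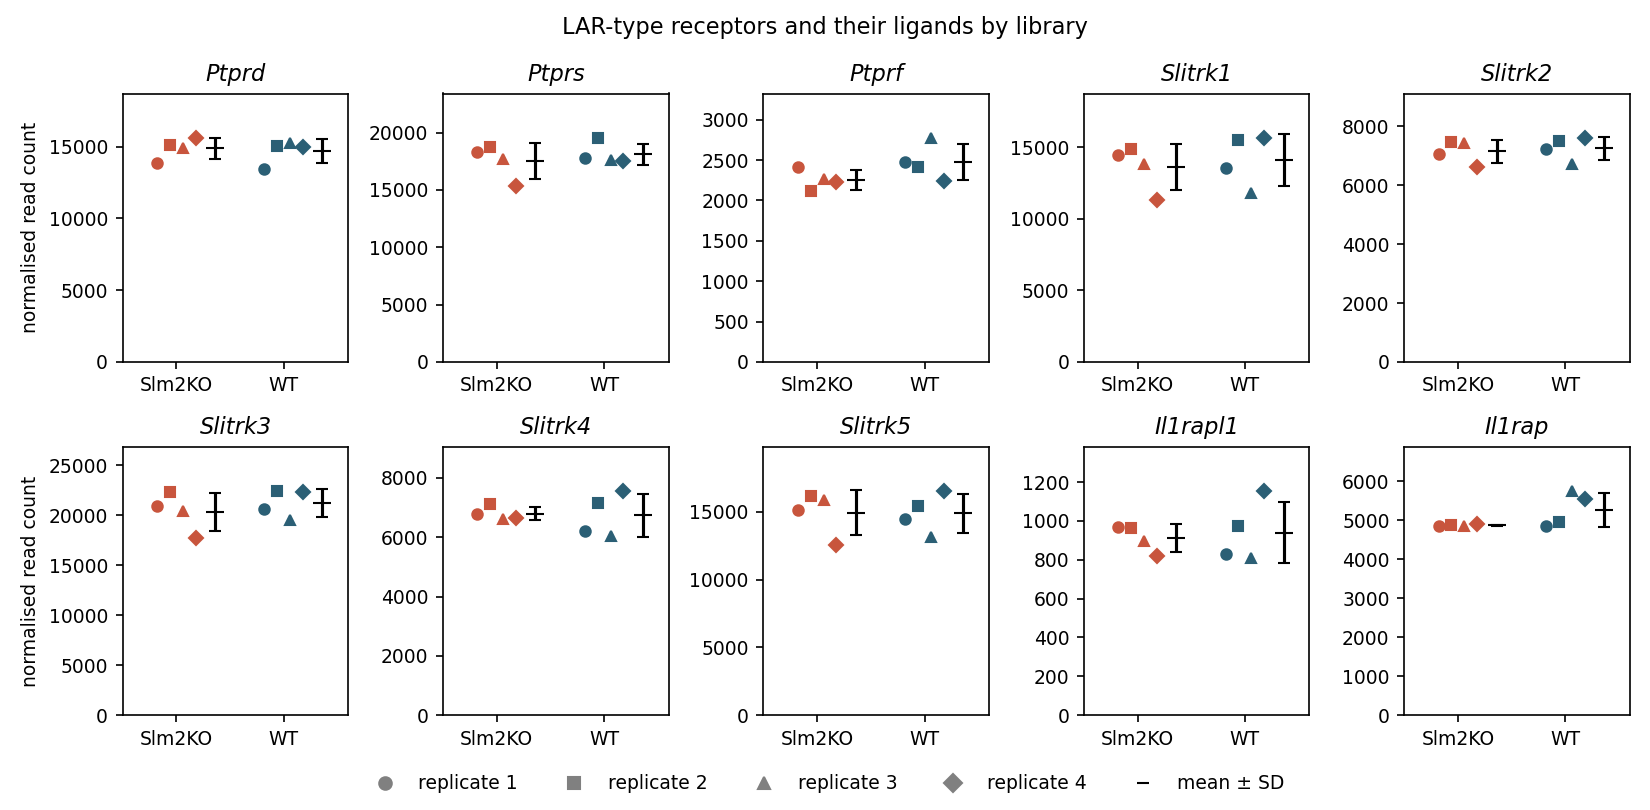
Normalised read counts of the 10 genes (y axes from 0), libraries labelled Slm2KO on the left and WT on the right of each panel; symbols mark the replicate number and bars the mean ± SD. The labels overlap in every panel, and the 4 Slm2KO values of Il1rap lie between 4852 and 4900.

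The Slitrk genes had nearly equal means under the labels. Slitrk1 (chromosome 14, 108908800 to 108914239) had 14480, 14848, 13809 and 11346 in the libraries labelled Slm2KO, against 13549, 15498, 11795 and 15628 in those labelled WT. Slm2KO 4 and WT 3 were low, 1 under each label. Slitrk5 (chromosome 14, 111675115 to 111683134) showed the same pair of low libraries, with 15130, 16196, 15893 and 12523 under the Slm2KO label, against 14452, 15424, 13181 and 16508 under the WT label. Slitrk3 (chromosome 3, 73048126 to 73057803), the partner of PTPδ at inhibitory synapses, had 20946, 22300, 20453 and 17770 under the Slm2KO label, against 20639, 22394, 19505 and 22381 under the WT label. Their log2 differences were -0.05 (SE 0.108), 0.00 (SE 0.093) and -0.06 (SE 0.076), with exact permutation p-values of 0.657, 1 and 0.486. None of these differences exceeded the spread between libraries of 1 label.

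The other Slitrk genes are X-linked. Slitrk2 (chromosome X, 66649318 to 66661402) averaged 7149 ± 394 under the Slm2KO label and 7259 ± 394 under the WT label (SD, n = 4 each), and its highest library was 1.15 times its lowest. Slitrk4 (chromosome X, 64269444 to 64276998) averaged 6799 ± 231 under the Slm2KO label and 6736 ± 723 under the WT label (SD, n = 4 each), and its WT values, 6042 to 7545, enclosed all the Slm2KO values. The log2 differences were -0.02 (SE 0.060) and 0.02 (SE 0.075). With Y-linked reads as a covariate, chosen after seeing the data, no member differed in limma between libraries with and without those reads (adjusted p from 0.930 to 0.999), the X-linked Slitrk2, Slitrk4 and Il1rapl1 included. Their label differences turned sign between libraries without and with those reads. The log2 differences were 0.03 and -0.11 for Slitrk2, 0.11 and -0.19 for Slitrk4 and 0.16 and -0.43 for Il1rapl1. Only 1 library labelled WT held Y-linked reads, and these values were not tested.

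Il1rapl1 (chromosome X, 86747242 to 88115688) was the lowest member in counts, with 969, 966, 896 and 819 in the libraries labelled Slm2KO, against 828, 973, 808 and 1151 in those labelled WT. WT 4 was the highest of the 8 and the other WT values bracketed those of the Slm2KO label. The log2 difference was -0.03 (SE 0.117; exact permutation p = 0.8), the least precise of the 10, and without WT 4 it was 0.07.

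Il1rap (chromosome 16, 26581705 to 26725264), which encodes both the ubiquitous accessory protein and a neuronal form, had 4852, 4874, 4863 and 4900 in the libraries labelled Slm2KO, against 4852, 4967, 5743 and 5540 in those labelled WT. The 4 values of the Slm2KO label spanned less than 50 counts, and WT 3 and WT 4 stood above all others. The SD under the Slm2KO label was 20.5 normalised counts, below the 70.6 that the counting of reads alone gives, which was the case in 1 of the 20 combinations of a member and a label; under the WT label it was 433, against 71.5 from counting. At -0.11 (SE 0.062), its log2 difference had an interval of 0.841- to 1.02-fold and an exact permutation p of 0.114.

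**Figure D3:**
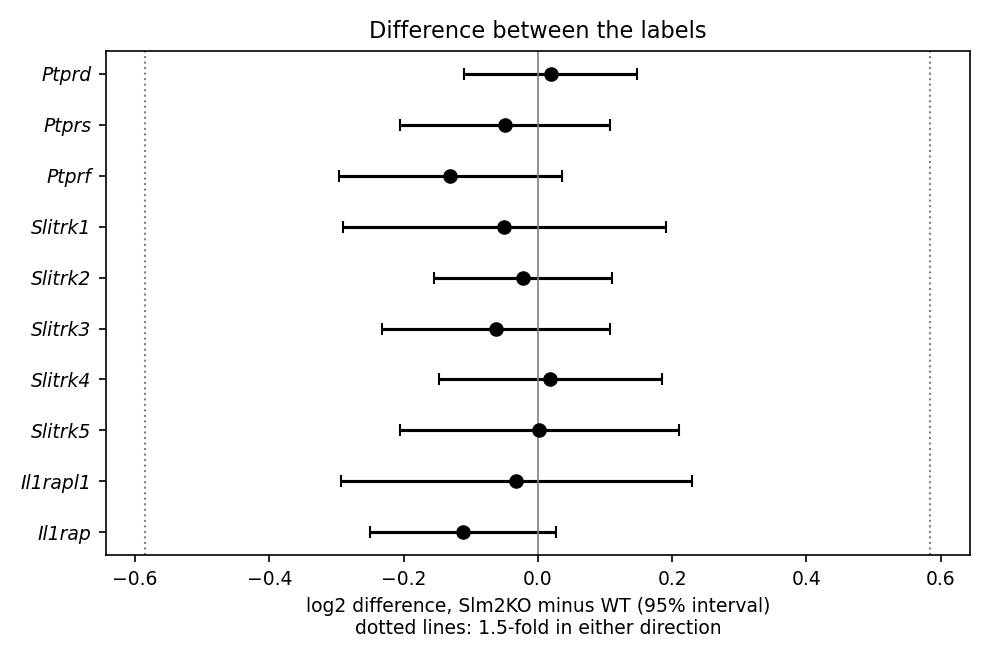
Log2 difference of each gene (libraries labelled Slm2KO minus WT, limma estimate with its 95% interval); dotted lines mark 1.5-fold in either direction. All 10 intervals include 0 and lie inside the dotted lines.

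The sample numbers in the labels fall into a lower and a higher series, with 2 libraries of each label in each. The labels do not say what the series stand for. All libraries with Y-linked reads (Slm2KO 3, Slm2KO 4 and WT 4) are in the higher series. WT 3, the other library of that series, held 0 such reads, so Y-linked reads are not balanced between the labels within it. For Ptprf the log2 difference was -0.11 in the lower series and -0.15 in the higher one. For Il1rap it was -0.01 and -0.21. Il1rapl1 had 0.11 and -0.17, and Slitrk1 0.02 and -0.12. With 2 libraries a label these are values without a test.

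Some Slitrk genes had similar profiles across the 8 libraries. In each gene's log2 values, centred on its own mean over the 8 libraries, Slitrk2 and Slitrk3 differed by a root mean square distance of 0.054, Slitrk3 and Slitrk5 by 0.059 and Slitrk1 and Slitrk5 by 0.061. Other pairs were farther apart, up to 0.100 for Slitrk1 and Slitrk2 and 0.108 for Slitrk1 and Slitrk4. Ptprs lay nearest to Slitrk3, at 0.056, while Ptprd and Ptprf were nearest to Il1rap, at 0.093 and 0.103. For comparison, the median distance of a gene with a symbol and a mean of at least 1000 was 0.098 from Slitrk2, 0.112 from Slitrk3, 0.155 from Slitrk1 and 0.116 from Ptprd. Each Slitrk gene had a gene outside the members nearer to it than any member. These were Asap2 for Slitrk1 (0.023), Camsap2 for Slitrk2 (0.019), Hsp90ab1 for Slitrk3 (0.018), Mysm1 for Slitrk4 (0.042) and Lmo3 for Slitrk5 (0.023). They are named here after their values were seen. By the same measure the genes nearest to Ptprs were Mlst8 (0.010), Preb (0.018) and Rrp12 (0.019), those nearest to Ptprd Slc30a4 (0.024), Bclaf1 (0.025) and Pik3r3 (0.027), and those nearest to Ptprf Adck4 (0.044), Aldh9a1 (0.047) and Ctbp2 (0.052), among 10327 candidates over 8 libraries. These distances are descriptions of 8 libraries that share their size factors.

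In Slm2KO 4 and WT 3, the libraries with the highest Ttr (2262369 in Slm2KO 4 and 1791307 in WT 3), all 5 Slitrk genes were below their own mean. In WT 2, with the lowest Ttr (219052), all 5 were above it, as they were in Slm2KO 2 and WT 4. A limma fit with the label and log2 Ttr together gave a negative slope on Ttr for 8 of 10 members, against 51.2% of all features, and for all 5 Slitrk genes. The share of negative slopes was not computed for features with a symbol and a mean of at least 500, which are nearer to the members in abundance. Slitrk1 fell by 0.12 on the log2 scale per doubling of Ttr (SE 0.031; limma adjusted p = 0.0466), and it was the 1 member called. In the related lists given below, limma also called negative slopes for Dlg4 (-0.14, adjusted p = 0.0310), Ptprn (-0.12, 0.0357), Ppfia3 (-0.12, 0.0434) and Agrn (-0.13, 0.0468). Positive slopes were called for Sdc2 (0.15, 0.0164), Sdc4 (0.14, 0.0397) and Ppfibp2 (0.27, 0.000513). Agrn, Sdc2, Sdc4 and Ppfibp2 are named here after their values were seen. Over all features, 5.04% were called in either direction and 1.06% lower with Ttr, and 2.12% were called lower among features with a symbol and a mean of at least 500. The slopes of Slitrk3 (-0.08), Ptprs (-0.07) and Slitrk5 (-0.09) did not pass (limma adjusted p = 0.0728, 0.0975 and 0.128), and those of Ptprf and Il1rap were 0.04 and 0.02. Without WT 2, limma also called Slitrk3 (-0.13, adjusted p = 0.0187) and Slitrk5 (-0.17, adjusted p = 0.0193). The call of Slitrk1 was lost without Slm2KO 1 (limma adjusted p = 0.0517), Slm2KO 2 (0.158), Slm2KO 3 (0.0775), Slm2KO 4 (0.234) or WT 3 (0.178) and under 4 of the other settings, while, with single libraries left out, the slope stayed between -0.18 and -0.10. Summed neuron markers were 392204 in the lowest and 523325 in the highest library labelled Slm2KO, against 430072 and 507011 in those labelled WT, and their part in these slopes was not tested.

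**Figure D4:**
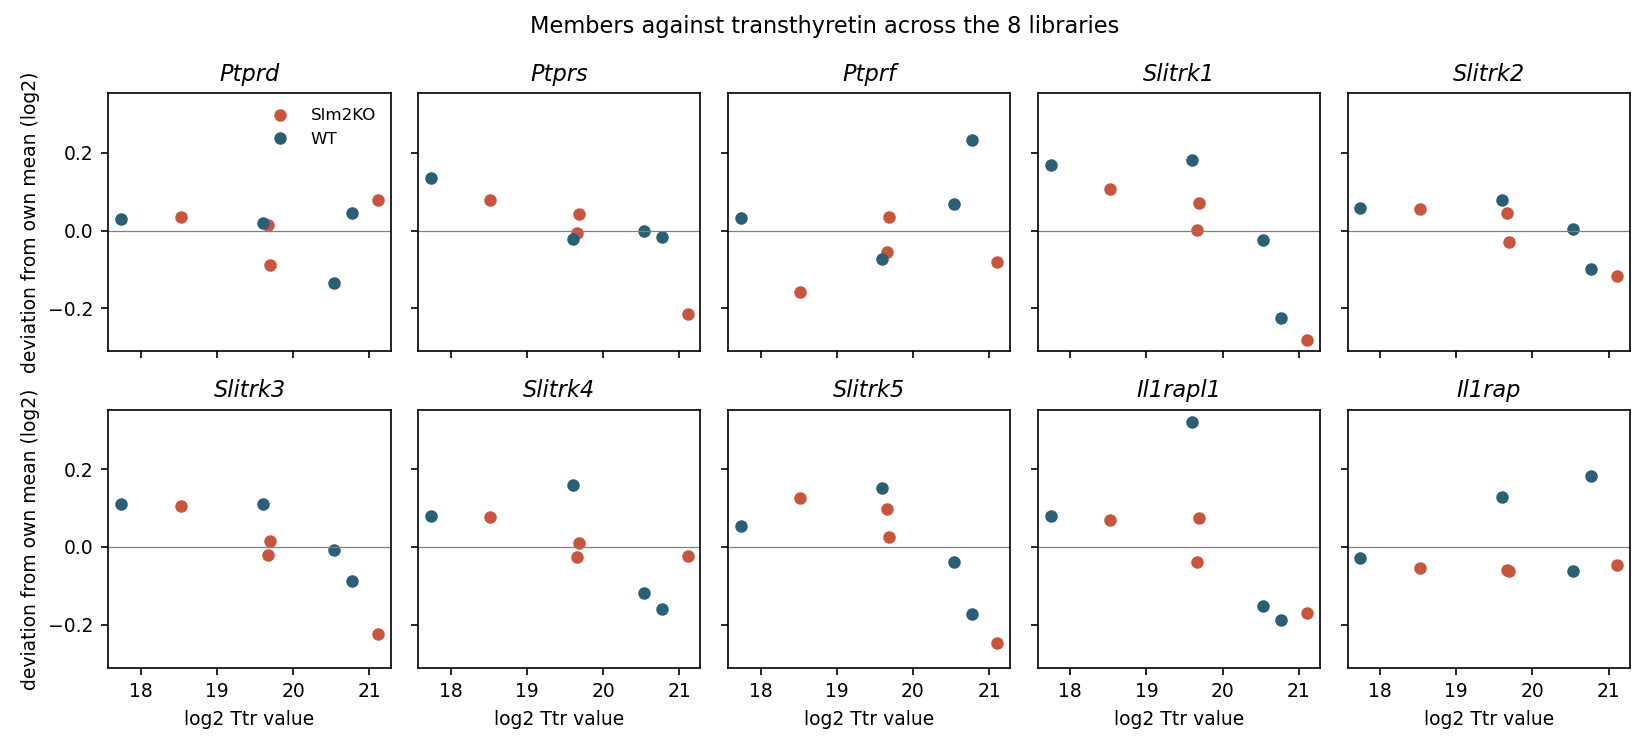
Deviation of each gene from its own mean (log2) against the log2 Ttr value of the library, for the 8 libraries. Slitrk1 deviates by -0.28 and -0.22 in the libraries with the highest Ttr (Slm2KO 4 and WT 3), while Ptprd shows no such slope.

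Rows that overlap a receptor gene were read from the same fit. Within Ptprs, a stretch without a symbol (GSMG0017695, chromosome 17, 56430555 to 56432478) that touches no annotated exon of the gene had 2519, 2628, 2281 and 2818 in the libraries labelled Slm2KO, against 2783, 2804, 2391 and 2139 in those labelled WT, a log2 difference of 0.02. At the start of Ptprd, B230208B08Rik on the opposite strand (chromosome 4, 78211515 to 78214548) overlaps the Ptprd row by 381 bases. It had 933, 867, 1033 and 736 under the Slm2KO label, against 1092, 1156, 886 and 1356 under the WT label. The log2 difference was -0.33 with an SE of 0.139, which limma did not call (adjusted p = 1.00; unadjusted p = 0.0408); the exact permutation p was 0.0857. The library kit does not mark strand, so reads in the shared stretch cannot be assigned to either gene. The count of Il1rap may carry the same limit. Gm20319 on the opposite strand overlaps the Il1rap row by 10583 bases. From its start to its end it spans 5953 bases of the Il1rap coding exons, but whether its own exons meet them was not examined. Gm20319 averaged 3.43 normalised read counts, against 5074 for Il1rap, and was not tested.

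Other genes of the system were read from 5 lists of 60 genes. For the difference between the labels, 0 passed in limma, in either direction. Of 9 other postsynaptic ligands, 8 had a negative and 1 a positive log2 difference, with Lrrc4b, which encodes NGL-3, at 14006 ± 2366 under the Slm2KO label and 15243 ± 1199 under the WT label, and Lrfn5 at 8332 ± 642 and 8180 ± 534 (SD, n = 4 each). Of 18 proteoglycans, 16 had a negative difference, among them Ncan (neurocan) with a log2 difference of -0.11, while Cspg5 was at -0.003. Of 13 cytoplasmic partners, 12 had a negative difference; Ctnnb1 (β-catenin) was at -0.02 and Ppfia3, a liprin-α that binds the second phosphatase domain, at -0.06. Of 4 cytoplasmic partners of IL1RAPL1, 3 had a negative difference; Dlg4 (PSD-95) was at -0.05 and Ncs1 at 0.02. Of 16 receptor phosphatases outside the LAR group, 13 had a negative difference, with Ptprn at -0.06 and Ptpra at -0.06.

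Over the 60 genes the median log2 difference was -0.07 and 52 differences were negative, where 53.9% of all features had a negative one and their median was -0.01. Without Slm2KO 4, the library with the highest Ttr, 39 of 60 were negative, with a median of -0.02. Without both Slm2KO 4 and WT 2, the library with the lowest Ttr, 30 of 60 were negative, with a median of -0.01. Another fit kept all libraries and took log2 Ttr as a covariate. In it the 60 differences were negative except those of Lrfn5, Gpc5, Cspg5, Ppfia1, Ppfia2, Ncs1, Ptprn2, Ptprr and Ptprh. Of these, Gpc5, Ppfia1, Ppfia2, Ptprn2, Ptprr and Ptprh are named here after their values were seen. Lrrc4b was then at -0.13, Ncan at -0.10, and Ptpra, Ptprn and Ppfia3 at -0.05. Dlg4 was then at -0.04, Ctnnb1 at -0.02, Cspg5 at 0.003, Ncs1 at 0.02 and Lrfn5 at 0.03. The part of Ttr in these differences was not tested. Of the 60, 3 had an unadjusted p under 0.05 in limma, against 3.52% of all features. They are named here after their values were seen: Acan (aggrecan, -0.21), Ntrk3 (TrkC, a PTPσ ligand, -0.19) and Ptpro (-0.16), each with an adjusted p of 1.00.

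**Figure D5:**
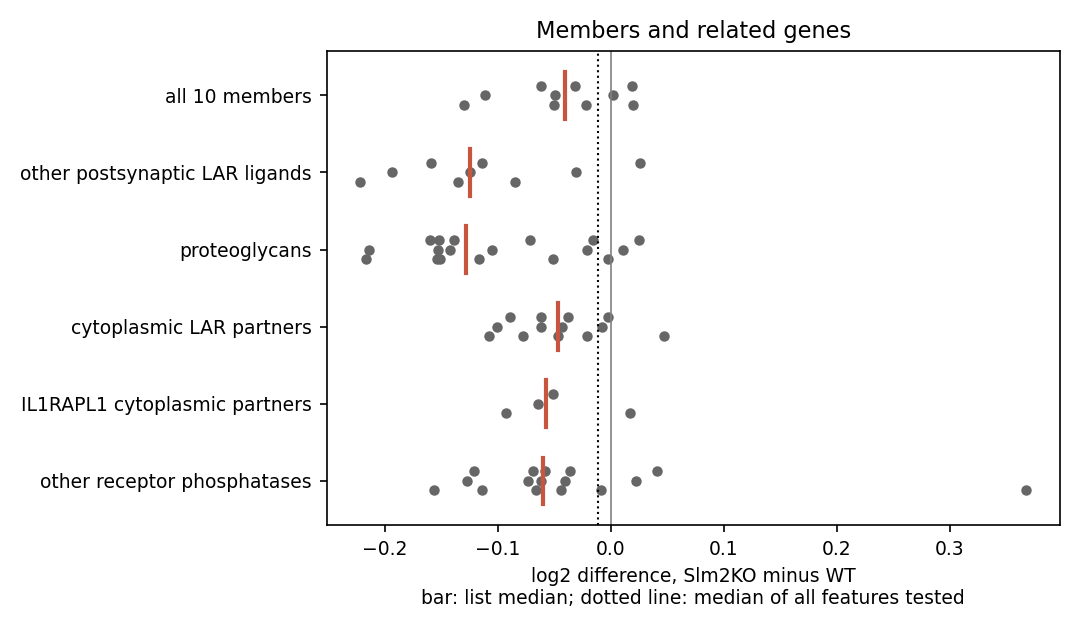
Log2 difference (libraries labelled Slm2KO minus WT) of each tested gene in 6 lists, with the list median as a bar and the median of all features as a dotted line. The members centre at -0.04 and the proteoglycans at -0.13, and no point passed in limma.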

How the data were processed

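The authors deposited 1 table of normalised read counts, here treated as a signal; DESeq appears in the submitters' processing notes, beside FastQC, Picard, SAMtools and hg19. The file header gives mm10 coordinates instead, and values carry no length correction. No source used here names the aligner, the counter or the strand setting. Whole reads were recovered from the deposited signal: 100% of values were whole multiples of 1 step per library within 0.001 of a read, although the step of WT 1 (size factor 0.999) was too near 1 to tell from rounding by itself.

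Features with a mean of at least 10 (25667) were tested on the log2(value + 1) scale in R 4.3.3 with limma 3.58.1, using a trended prior, no covariates and Benjamini-Hochberg adjustment over all of them. Fold changes are on that scale, which understates the change of low genes. For single genes a two-sided exact permutation p was computed, which cannot go below 0.0286. Alternatives used pseudocounts of 0.5 and 10, no filter or a mean of at least 50, TMM or quantile scaling, edgeR 4.0.16 and DESeq2 1.42.0 on recovered reads, limma without the trend, covariates, and left-out libraries. Exon lengths and sequences came from GENCODE vM21. The procedure was tested on simulated data. Named genes were the members, Khdrbs3, rows overlapping a member, the 2 most abundant genes of each list and the 3 genes nearest to each receptor. Members, lists and the choice of Ttr were made with earlier results of these data known. Figures were drawn with matplotlib 3.10.9.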

Additional observations from a re-analysis of the deposited data

Results flagged for a closer look

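In groups of 4 libraries, a value was picked out when its gap to the nearest other value, as a share of the group's range, exceeded Dixon's 95% critical value. Of 42 combinations of a gene and a label examined, 3 were picked out, and chance picks about 1 in 20. Ptprd in WT 1 (13451 normalised read counts) was lower than in the other WT-labelled libraries. Ptprs in WT 2 (19509) was higher than in the other WT-labelled libraries. Ptprn, a related receptor phosphatase, in Slm2KO 4 (42416) was lower than in the other libraries labelled Slm2KO; Slm2KO 4 also had the highest Ttr.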

How the results depend on the processing

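Under 22 alternatives, 0 of the 10 members and 0 of the 60 related genes were called for the difference between the labels. Over all features the count of calls was 1 in the reported limma fit, 2 with a pseudocount of 10, 9 with DESeq2, 0 without the intensity trend, 2 with log2 Ttr as a covariate and 0 to 2 with single libraries left out. Ptprf and Il1rap kept their sign throughout. Without WT 2 and Slm2KO 4, lowest and highest in Ttr, the log2 difference turned positive for Ptprs (0.0505), Slitrk1 (0.0831), Slitrk2 (0.0294), Slitrk3 (0.0282), Il1rapl1 (0.0407), Lrrc4b (0.0230), Ncan (0.0320), Cspg5 (0.104), Ctnnb1 (0.000119), Ppfia3 (0.0786), Dlg4 (0.114), Ptprn (0.101) and Ptpra (0.00675). That of Cspg5 was also positive with edgeR (0.00097), DESeq2 (0.0022), log2 Ttr (0.0031) or Y-linked reads (0.0367) as a covariate. Leaving out single libraries gave ranges that cross 0 for Ptprd (-0.022 to 0.052), Ptprs (-0.084 to 0.014), Slitrk1 (-0.133 to 0.035), Slitrk2 (-0.059 to 0.013), Slitrk3 (-0.107 to 0.0017), Slitrk4 (-0.031 to 0.075), Slitrk5 (-0.055 to 0.084), Il1rapl1 (-0.100 to 0.070), Lrfn5 (-0.012 to 0.076), Cspg5 (-0.054 to 0.083), Ctnnb1 (-0.049 to 0.0087), Ppfia3 (-0.127 to 0.037), Dlg4 (-0.119 to 0.059), Ncs1 (-0.028 to 0.102) and Ptprn (-0.117 to 0.036). The cause was not tested. Members with a called slope on Ttr numbered 1 as reported, 0 without a filter, with quantile scaling, without the trend or with the replicate block, and 0 to 3 with single libraries left out. The slope of Ptprd was positive with quantile scaling (0.0235) and with the replicate block (0.0171). With single libraries left out it ranged from -0.0277 to 0.0109, and that of Il1rap from -0.0022 to 0.0423.

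The values do not settle whether the replicate numbers pair the samples. Same-numbered libraries had correlations of deviations of 0.124, 0.323, -0.065 and -0.122. The best partner had the same number for replicates 1 and 2, but not for replicates 3 and 4. With the replicate block, 1 feature, 0 members and 0 related genes were called. A 1.5-fold difference lies outside the interval of each member, and smaller ones inside those intervals are not excluded with 4 libraries a label.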
